A study of Danio rerio with 16 samples.

Results

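The 6 genes of brain and eye patterning described here are en2, mab21l2, rx1, gbx1, sox19b and zic5, out of 27257 gene identifiers listed in at least 1 library. They were matched by identifier and had been chosen by their measured change between a morphant group and WT, so their values in the 6 morphant comparisons are given as a description, with no test. The symbol en2 belongs to 2 identifiers in the name table, and the gene meant is ENSDARG00000038868; the other copy, ENSDARG00000026599, is treated as a relative. All 6 genes were listed in all 16 libraries and passed the filter on low values, 1 RPKM or more in 2 or more libraries. rx1 reached 1 RPKM in 8 libraries, all at 6-somites. en2 reached it in 10, those at 6-somites and those of Gata6 morphants at bud. Both thus entered the comparison between the stages in WT embryos through libraries where they are high, which favours a rise.

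The embryos were zebrafish of 4 labelled kinds, Gata5 morphants, Gata6 morphants, Gata5/6 morphants (double morphants below) and WT, taken at 6-somites and at bud, the stage that closes gastrulation. Each of the 8 groups held 2 libraries of polyA RNA, each from 40 pooled whole embryos, and the series title asks how GATA factors act through Tmem88a on WNT signalling and heart muscle progenitors. A morphant is made by injecting a morpholino, a synthetic antisense molecule that keeps a target mRNA from being spliced or translated without needing to lower its level. Protein was not measured and morpholino doses, clutches, injection days and the strain are not in the labels, nor is an injected control, so an effect of injection and an effect of losing the target cannot be told apart. The labels also do not say whether libraries of a group came from separate clutches, and p-values measure the spread between these libraries alone.

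The vertebrate neural plate is divided along its length by transcription factors that hold regions apart. en2 encodes an engrailed homeodomain protein of the boundary between midbrain and hindbrain, and gbx1 encodes a homeodomain protein made early in the neural plate on the hindbrain side of that boundary. rx1 is a retinal homeobox gene of the forming eye, and mab21l2 is needed for eye growth and is also made in the midbrain. sox19b encodes a SoxB1 factor supplied by the mother and then made throughout the early neural plate, and zic5 encodes a zinc finger factor of the dorsal neural plate and its border. Gata5 and Gata6 are zinc finger factors known from heart and endoderm.

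The differences from WT past the threshold used below were of 3 kinds, a sorting that only restates the choice of the genes. Other differences are given gene by gene below. In Gata6 morphants at bud, en2 and mab21l2 were higher and gbx1 was lower than in WT embryos. In double morphants at bud, zic5 and sox19b were higher, and gbx1 lay above WT without passing the threshold used below. At 6-somites rx1 was lower in double morphants, and in Gata6 morphants it lay below WT without passing that threshold. Between the stages in WT embryos, a comparison that the choice of the genes did not use although it shares the WT libraries, 4 of the 6 genes rose, gbx1 fell and sox19b did not pass the test.

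Facts of the whole series that touch these values are few. Whole reads recovered from the values summed to 14.4 to 23.0 M per library, without 41 abundant genes for which recovery failed. Principal component 1, with 50.5% of the variance, separated the stages, with 6-somites libraries at 14.6 to 38.4 and bud libraries at -39.6 to -14.6. In morphants that carry the Gata5 morpholino the mRNA of gata5 was listed at 91.0 to 130.1 RPKM at 6-somites, against 27.0 to 32.3 RPKM in WT embryos, and at 105.6 to 160.5 RPKM at bud, against 46.3 to 52.9 RPKM in WT embryos. Gata6 morphants, which do not carry that morpholino per their label, also lay above WT for gata5. They had 44.2 to 46.0 RPKM at 6-somites and 58.6 to 59.0 RPKM at bud. gata6 was not matched and is not analysed here. Libraries of the same group differed more at bud than at 6-somites: the SD of their log2 differences over genes was 0.183 to 0.228 at 6-somites and 0.341 to 0.475 at bud. The 2 Gata6 morphant bud libraries were at -14.6 and -26.9 on the first component, the 2 double morphant bud libraries at -37.3 and -36.0, and the 2 WT bud libraries at -24.6 and -39.6. For mdm2, a target of p53, library 1 of the Gata6 morphants and library 1 of the double morphants were highest at bud, with 16.1 and 8.31 RPKM, and library 2 of the Gata6 morphants had 5.18 RPKM, against 2.41 to 3.32 RPKM in WT bud libraries. At 6-somites every morphant library lay above WT for mdm2, with 7.35 to 9.05 RPKM in Gata5, 6.44 to 8.56 RPKM in Gata6 and 5.43 to 5.54 RPKM in double morphants, compared with 3.37 to 3.62 RPKM in WT embryos. RPKM divides the reads of a gene by the length of its model and by library size, so levels of different genes can be set side by side on this scale.

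Between the stages in WT embryos, en2 rose most. It had 17.3 and 15.7 RPKM at 6-somites, against 0.267 and 0.404 RPKM at bud, where 15 and 20 reads lay behind the values. The ratio of the means was 49.2, and the change on the log2(RPKM + 1) scale was 3.71 ± 0.12 (SE; limma, Benjamini-Hochberg adjusted p = 2.07e-08). A change on this scale understates the ratio for weakly expressed genes. By mean RPKM, en2 was the third of the 6 genes at 6-somites, after sox19b and mab21l2, and the fifth at bud.

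The genes of the eye also rose. mab21l2 had 31.3 and 26.3 RPKM in WT embryos at 6-somites, against 2.29 and 1.08 RPKM at bud, a ratio of 17.1 and a log2 change of 3.50 ± 0.29 (SE, adjusted p = 9.04e-06, limma). rx1 had 3.65 and 2.59 RPKM at 6-somites and 0.110 and 0.173 RPKM at bud, a ratio of 22 and a log2 change of 1.84 ± 0.14 (SE, adjusted p = 4.67e-06, limma). rx1 was the weakest of the 6 genes at both stages in WT embryos.

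zic5 rose less, and gbx1 fell. zic5 had 5.92 and 5.82 RPKM in WT embryos at 6-somites, against 1.78 and 2.44 RPKM at bud, a ratio of 2.78 (log2 change 1.15 ± 0.12 SE, adjusted p = 4.75e-05, limma). gbx1 had 5.47 and 5.91 RPKM at 6-somites, against 15.7 and 17.9 RPKM at bud, 2.95-fold lower (log2 change -1.41 ± 0.16 SE, adjusted p = 8.72e-05, limma). gbx1 was the second highest of the 6 genes at bud.

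sox19b stayed the highest of the 6 genes at both stages. It had 36.3 and 37.4 RPKM in WT embryos at 6-somites, against 42.5 and 41.3 RPKM at bud. The libraries did not overlap, but the log2 change of -0.18 ± 0.08 (SE) did not pass the test (adjusted p = 0.129, limma). With median-of-ratios scaling, which moved the median of all genes in this comparison by -0.09, the change was -0.29 and passed (adjusted p = 0.0287). In all, 5 of the 6 genes were called between the stages, 4 higher and 1 lower, where 29.9% of 14751 genes were, 20.3% higher and 9.57% lower, and the libraries did not overlap for 6 of the 6, as for 69.1% of all genes.

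**Figure D1:**
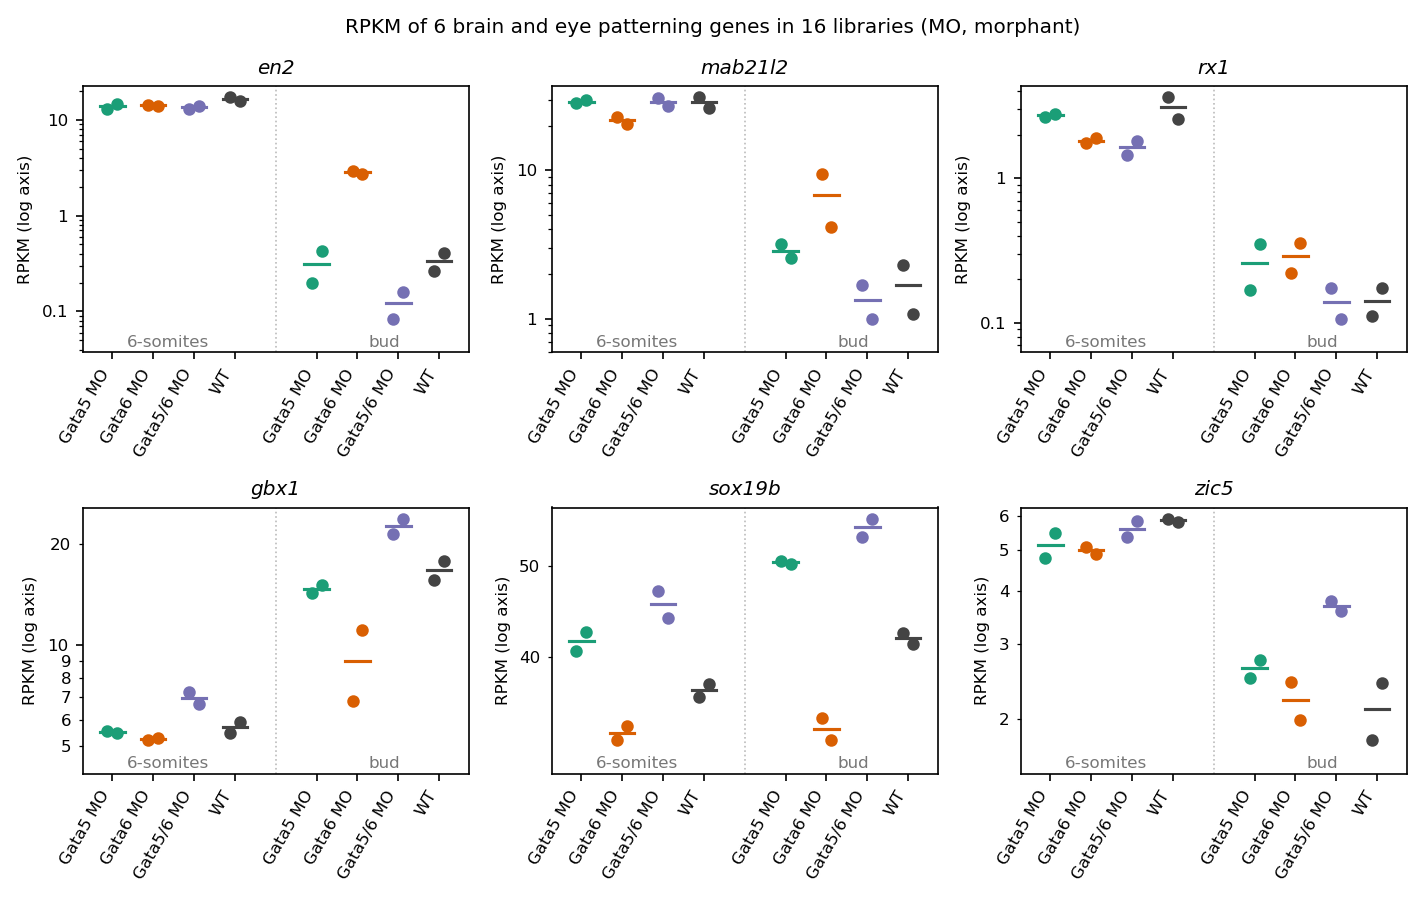
RPKM (log axis, scaled for each gene) of the 6 genes in every library, with 6-somites left of bud and the morphant groups left of WT; points are libraries and lines the mean of 2. At bud, both Gata6 morphant libraries (2.90 and 2.75 RPKM) lie above all other bud libraries for en2, while at 6-somites all groups lie within 13.0 to 17.3 RPKM.

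At 6-somites, en2 was close in all groups. It had 13.1 and 14.7 RPKM in Gata5 morphants, 14.4 and 13.9 RPKM in Gata6 morphants and 13.0 and 14.0 RPKM in double morphants; WT embryos had 17.3 and 15.7 RPKM. All 6 morphant libraries lay below both WT libraries, and the 3 morphant groups overlapped each other. The log2 changes against WT were -0.23, -0.21 and -0.27 in Gata5, Gata6 and double morphants, each with an SE of 0.12.

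At bud, en2 set the Gata6 morphants apart. It had 2.90 and 2.75 RPKM in Gata6 morphants, against 0.267 and 0.404 RPKM in WT embryos. The means were 2.82 ± 0.102 and 0.335 ± 0.0968 RPKM (SD, n = 2), a ratio of 8.42 and a log2 change of 1.52 ± 0.12 (SE). The level was above that of every other bud library and below that of every 6-somites library. In whole embryos, fewer cells of a type and less RNA per cell cannot be told apart, here or for any other value below.

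The other morphants did not show this level of en2 at bud. Gata5 morphants had 0.196 and 0.423 RPKM and overlapped WT embryos. Double morphants, which carry the Gata6 morpholino too per their label, had 0.0836 and 0.161 RPKM, from 3 and 8 reads, against 0.267 and 0.404 RPKM in WT embryos. Both double morphant libraries lay below both WT libraries (mean 0.122 ± 0.0550 RPKM, n = 2, log2 change -0.25 ± 0.12 SE), at a level where counting error is large. Between the stages, the ratio of the means for en2 was 44.9 in Gata5, 5.0 in Gata6 and 110.2 in double morphants, beside 49.2 in WT embryos.

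gbx1 at 6-somites was highest in double morphants. It had 5.55 and 5.47 RPKM in Gata5 morphants, 5.20 and 5.29 RPKM in Gata6 morphants and 7.24 and 6.68 RPKM in double morphants; WT embryos had 5.47 and 5.91 RPKM. The double morphants lay above all other 6-somites libraries (log2 change 0.25 ± 0.16 SE against WT), Gata6 morphants lay below WT, and Gata5 morphants overlapped WT.

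At bud the order of the group means was the same, with wider gaps. gbx1 had 6.83 and 11.1 RPKM in Gata6 morphants, 14.3 and 15.1 RPKM in Gata5 morphants and 21.5 and 23.9 RPKM in double morphants; WT embryos had 15.7 and 17.9 RPKM. No groups overlapped, so from low to high they ran Gata6 morphants, Gata5 morphants, WT embryos and double morphants. The Gata6 morphant mean was 8.96 ± 3.02 RPKM and the WT mean 16.8 ± 1.55 RPKM (SD, n = 2), a ratio of 0.534 and a log2 change of -0.87 ± 0.16 (SE). That change was -0.55 without library 1 of the Gata6 morphants and -1.18 without library 2. In double morphants the mean was 22.7 ± 1.71 RPKM and the log2 change 0.41 ± 0.16 (SE).

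mab21l2 at 6-somites lay apart from WT in Gata6 morphants alone. It had 28.4 and 30.0 RPKM in Gata5 morphants, 23.1 and 20.5 RPKM in Gata6 morphants and 30.7 and 27.1 RPKM in double morphants; WT embryos had 31.3 and 26.3 RPKM. The Gata6 morphants lay below all other 6-somites libraries (log2 change -0.39 ± 0.29 SE against WT), and the other groups overlapped.

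At bud mab21l2 was highest in Gata6 morphants. It had 9.42 and 4.15 RPKM in Gata6 morphants and 3.18 and 2.56 RPKM in Gata5 morphants, against 2.29 and 1.08 RPKM in WT embryos. Double morphants, with 1.68 and 0.996 RPKM, overlapped WT, while both kinds of single morphant lay above WT. The Gata6 morphant mean was 6.79 ± 3.73 RPKM against 1.69 ± 0.860 RPKM in WT embryos (SD, n = 2), a ratio of 4.03 and a log2 change of 1.49 ± 0.29 (SE). Library 1 held the higher value in the Gata6 morphants, as it did in every other group at bud. The log2 change was 0.98 without library 1 of the Gata6 morphants and 1.99 without their library 2. In Gata5 morphants the log2 change of 0.56 ± 0.29 (SE) was 0.89 without library 1 of WT and 0.23 without library 2 of WT.

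rx1 at 6-somites was lowest in the morphants that carry the Gata6 morpholino. It had 2.67 and 2.80 RPKM in Gata5 morphants, 1.76 and 1.89 RPKM in Gata6 morphants and 1.45 and 1.82 RPKM in double morphants; WT embryos had 3.65 and 2.59 RPKM. Gata6 and double morphants overlapped each other and lay below all Gata5 morphant and WT libraries, which also overlapped. The double morphant mean was 1.63 ± 0.267 RPKM and the WT mean 3.12 ± 0.751 RPKM (SD, n = 2), with a log2 change of -0.64 ± 0.14 (SE). In Gata6 morphants the log2 change was -0.54 ± 0.14 (SE), and it was -0.35 without library 1 of WT.

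At bud rx1 was near the lower end of what these libraries can measure. It had 0.169 and 0.349 RPKM in Gata5 morphants, 0.220 and 0.356 RPKM in Gata6 morphants and 0.173 and 0.106 RPKM in double morphants; WT embryos had 0.110 and 0.173 RPKM. Its lowest library held 11 reads. The Gata6 morphants lay above WT and the other groups overlapped WT, and no log2 change was above 0.17 with an SE of 0.14.

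sox19b kept 1 order of the groups at both stages. At 6-somites it had 40.6 and 42.6 RPKM in Gata5 morphants, 32.7 and 33.8 RPKM in Gata6 morphants and 47.0 and 44.1 RPKM in double morphants; WT embryos had 36.3 and 37.4 RPKM. No groups overlapped. The log2 changes were 0.17, -0.15 and 0.30 in Gata5, Gata6 and double morphants, each with an SE of 0.08.

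At bud sox19b had 50.7 and 50.3 RPKM in Gata5 morphants, 34.5 and 32.6 RPKM in Gata6 morphants and 53.8 and 56.2 RPKM in double morphants; WT embryos had 42.5 and 41.3 RPKM. Again no groups overlapped, and from low to high they ran Gata6 morphants, WT embryos, Gata5 morphants and double morphants, as at 6-somites. The double morphant mean of 55.0 ± 1.71 RPKM was 1.31 times the WT mean of 41.9 ± 0.834 RPKM (SD, n = 2), a log2 change of 0.38 ± 0.08 (SE). The log2 changes in Gata5 and Gata6 morphants were 0.26 and -0.31.

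zic5 at 6-somites had 4.79 and 5.47 RPKM in Gata5 morphants, 5.09 and 4.90 RPKM in Gata6 morphants and 5.36 and 5.84 RPKM in double morphants; WT embryos had 5.92 and 5.82 RPKM. Gata5 and Gata6 morphants lay below WT and double morphants overlapped WT. At bud it had 2.51 and 2.76 RPKM in Gata5 morphants, 2.45 and 1.99 RPKM in Gata6 morphants and 3.78 and 3.59 RPKM in double morphants; WT embryos had 1.78 and 2.44 RPKM. The double morphants lay above all other bud libraries and below all 6-somites libraries, with a mean of 3.69 ± 0.138 RPKM against 2.11 ± 0.461 RPKM in WT embryos (SD, n = 2), a ratio of 1.75 and a log2 change of 0.60 ± 0.12 (SE). Gata5 morphants lay above WT by 0.23 on the log2 scale, which was 0.08 without library 1 of WT, and Gata6 morphants overlapped WT.

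**Figure D2:**
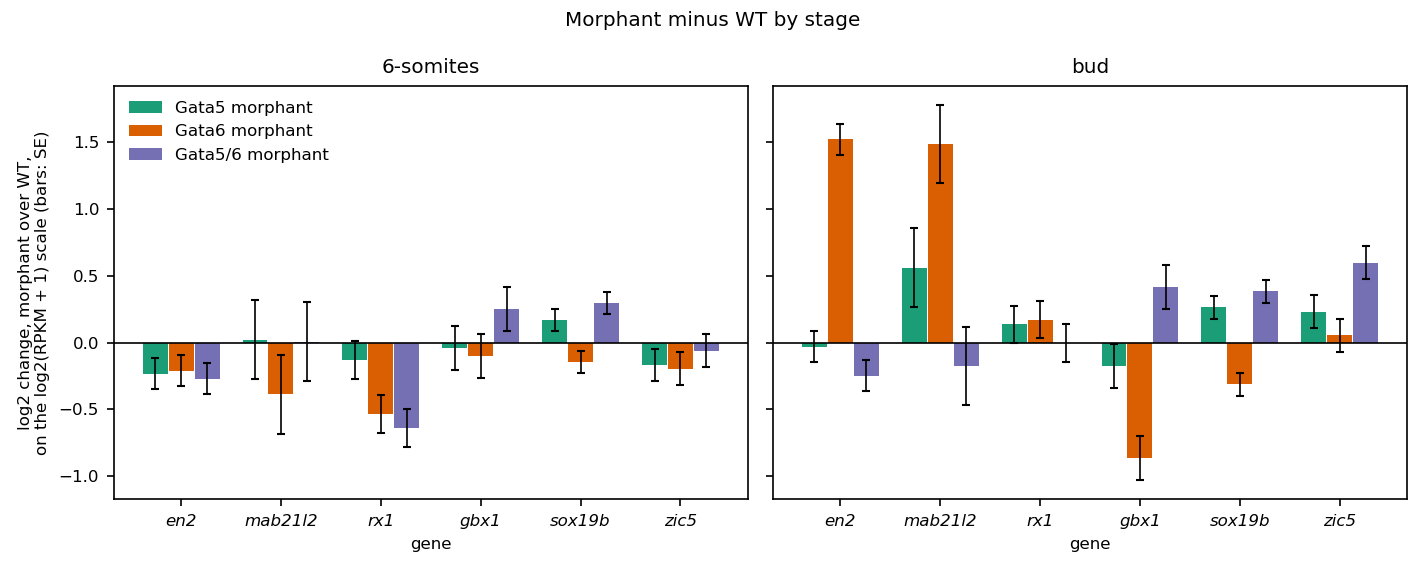
Log2 change of each of the 6 genes in each morphant group over WT at 6-somites (left) and bud (right), on the log2(RPKM + 1) scale; bars are limma SE. At bud the Gata6 morphants stand at 1.52 for en2, 1.49 for mab21l2 and -0.87 for gbx1, while at 6-somites the lowest values are -0.64 and -0.54 for rx1 in double and Gata6 morphants.

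Genes were called at an adjusted p under 0.05 in the fit across all genes, and since the 6 genes were chosen for such changes their calls only restate that choice. Of the 6 genes, 3 were past this threshold in Gata6 morphants at bud (en2 and mab21l2 higher, gbx1 lower), where 1.63% of 14754 genes were, 0.854% higher and 0.779% lower. In double morphants at bud 2 were (sox19b and zic5, both higher), where 1.59% were, 0.766% higher, and at 6-somites 1 was (rx1, lower), where 3.8% of 14755 genes were, 2.02% lower. None was past it in Gata5 morphants at bud, in Gata5 morphants at 6-somites or in Gata6 morphants at 6-somites, where 0.359%, 0.474% and 0.339% of genes were. Just inside the threshold was sox19b in double morphants at bud, at a log2 change of 0.38. Just outside it were sox19b in double morphants at 6-somites, at 0.30, and in Gata6 morphants at bud, at -0.31. The libraries of the 2 groups did not overlap for 4, 5 and 4 of the 6 genes in Gata5, Gata6 and double morphants at bud, beside 36%, 38.7% and 40.5% of all genes, and for 3, 6 and 4 at 6-somites, beside 57%, 50.9% and 60.3%. The comparisons of a stage share the WT libraries, so an unusual WT library touches them together.

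A fit of the bud libraries alone left none of the 6 genes past the threshold at bud. A fit of the 6-somites libraries alone put rx1, gbx1 and sox19b past it in double morphants, and none in Gata5 or Gata6 morphants. sox19b and zic5 in double morphants at bud were both lost without library 1 of WT or either double morphant library, and zic5 alone was left without library 2 of WT. en2 in Gata6 morphants at bud was past the threshold whichever library was left out, and mab21l2 and gbx1 were lost without library 2 of WT. rx1 in double morphants at 6-somites was lost without library 1 of WT or either double morphant library, and with a pseudocount of 0.1.

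The relatives of these genes, which the choice did not use, were tested in the same fit. Of 16 relatives with a listed identifier, 15 were tested, and none was called in any of the 6 morphant comparisons (limma). Between 0 and 5 of the 15 had an unadjusted p under 0.05, the 5 being lower in Gata6 morphants at bud, where 19.4% of all genes had such a p, and limma-voom called none. The lowest adjusted p was 0.065, for rx3 in double morphants at 6-somites, with 34.5 and 25.9 RPKM against 16.8 and 18.0 RPKM in WT embryos. rx3 is an early eye field gene, and both double morphant libraries lay above both WT libraries for it, the opposite side from rx1. With the library number as a block within each stage, rx3 passed the test there (log2 change 0.75 ± 0.16 SE, adjusted p = 0.0305, limma), and no other relative did in a morphant comparison.

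Between the stages in WT embryos 1 of the 15 relatives rose and 5 fell, while 4 of the 6 genes rose and 1 fell. With the library number as a block within each stage 8 of the 15 relatives were called, and limma-voom also called 8. rx2, a retinal homeobox gene like rx1, rose to 4.06 RPKM at 6-somites, against 0.143 RPKM at bud (log2 change 2.14 ± 0.15 SE, adjusted p = 2.45e-06, limma). Its highest bud library held 0.671 RPKM, so rx2 too passed the filter through 6-somites libraries alone, which favours a rise. rx3 fell to 17.4 RPKM at 6-somites, against 48.3 RPKM at bud (log2 change -1.41 ± 0.20 SE, adjusted p = 0.000355). Both zic2 copies and sox1 ENSDARG00000069866 were among the others that fell, while zic5 rose. gbx2 and sox3 had positive log2 changes that did not pass the test.

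**Figure D3:**
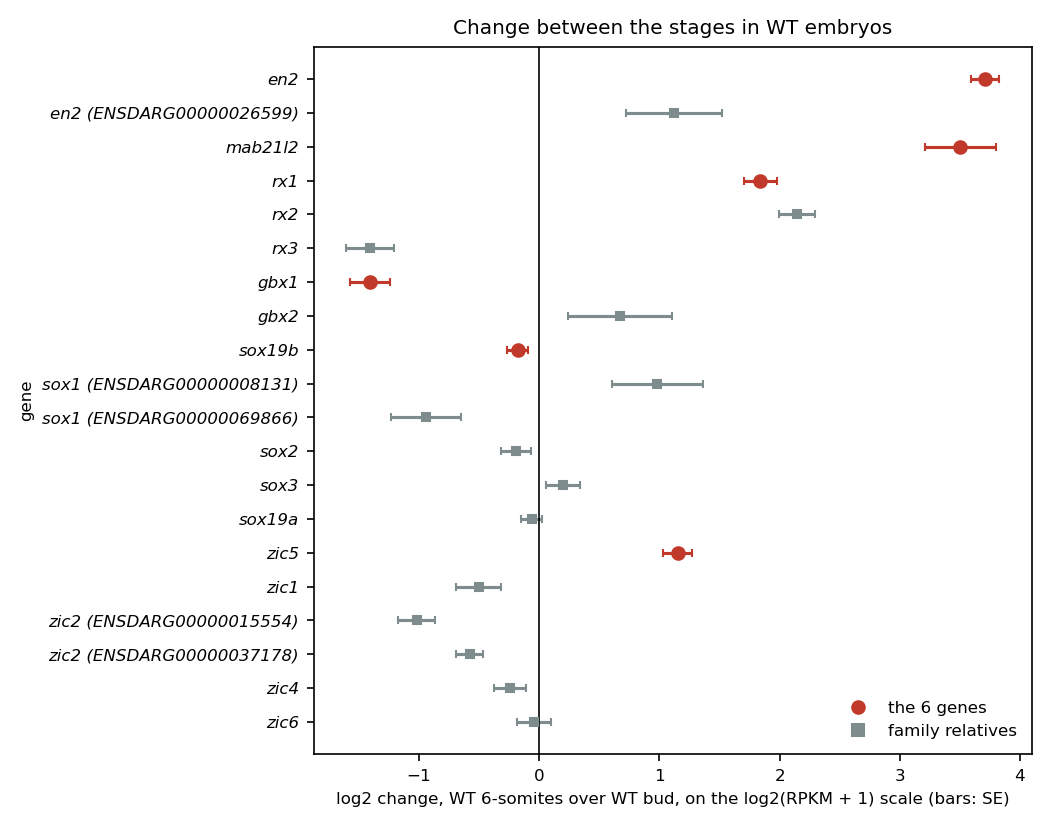
Log2 change of the 6 genes (circles) and of relatives (squares) in WT embryos at 6-somites over bud, on the log2(RPKM + 1) scale; bars are limma SE. en2, mab21l2, rx2, rx1 and zic5 lie right of the relatives of the zic family, which lie at or left of 0, as do rx3 and gbx1.

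The relatives also show how far the bud libraries of a group can differ. The other en2 copy had 8.07 and 2.97 RPKM in libraries 1 and 2 of the Gata6 morphants at bud, against 7.45 and 2.21 RPKM in libraries 1 and 2 of WT embryos. gbx2, another homeobox gene of the hindbrain side, had 16.7 and 5.45 RPKM in the Gata6 morphants, against 15.7 and 5.28 RPKM in WT embryos. For both genes library 1 was high and library 2 was low in both groups, and the group means differed little. en2 itself, at 2.90 and 2.75 RPKM in Gata6 morphants and 0.267 and 0.404 RPKM in WT embryos, did not show that split.

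**Figure D4:**
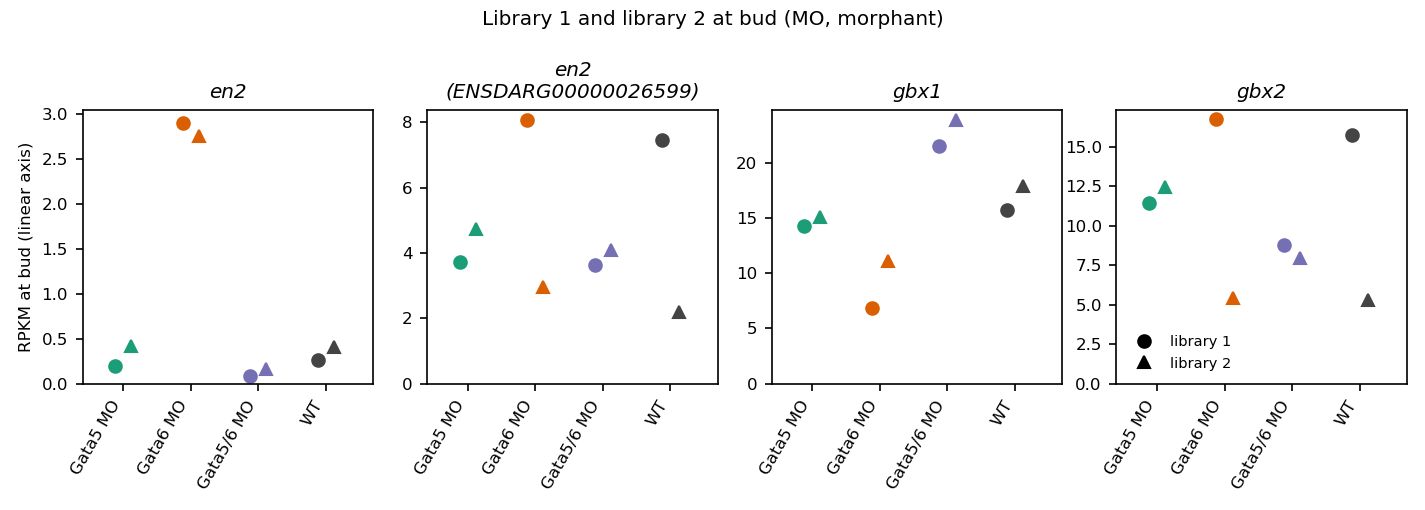
RPKM (linear axes from 0) at bud of en2, its other copy ENSDARG00000026599, gbx1 and gbx2, with library 1 as circles and library 2 as triangles. The other en2 copy and gbx2 differ between library 1 and library 2 in Gata6 morphants and WT alike, while en2 differs between the groups.

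The wider neural lists held 106 identifiers in 7 lists, the 6 genes left out, of which 93 were tested. In Gata6 morphants at bud 3 were called, 1 higher and 2 lower (3.23% beside 1.63% of all genes). sox10, a factor of neural crest, averaged 3.94 ± 0.969 RPKM in Gata6 morphants and 0.920 ± 0.505 RPKM in WT embryos (log2 change 1.37 ± 0.17 SE, adjusted p = 0.00555, limma). her11, a repressor of the midbrain-hindbrain boundary, averaged 3.60 ± 1.84 RPKM and 7.67 ± 0.378 RPKM (log2 change -0.97 ± 0.21 SE, adjusted p = 0.0432, limma), and her4.1, a Notch target, averaged 0.330 and 1.04 RPKM (log2 change -0.62 ± 0.11 SE, adjusted p = 0.0198, limma). At an unadjusted p under 0.05 (limma), 10 were higher and 24 lower, 36.6% of the 93 beside 19.4% of all genes. The median log2 change of the 93 genes was -0.03 beside 0.00 for all genes, and 46 of 93 were above 0. The count of 3 depended on the libraries: it was 22 without library 1 of the Gata6 morphants and 8 without library 2, and 8 without library 1 of WT and 1 without library 2. With the library number as a block within each stage it was 5, of which 1 was higher, and held the same 3 genes beside fezf2 and olig2. A fit of the bud libraries alone called none of the 93.

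In double morphants at bud 1 neural gene was called, tbx2 ENSDARG00000006120, a T-box factor of the dorsal eye. Its mean was 0.770 ± 0.0437 RPKM in double morphants beside 2.00 ± 0.627 RPKM in WT (log2 change -0.75 ± 0.17 SE, adjusted p = 0.0498, limma), and the call was lost without library 1 of WT or either double morphant library. The block within each stage added tfap2c, a factor of the neural plate border (log2 change -0.60 ± 0.10 SE, adjusted p = 0.0184, limma). A fit of the bud libraries alone called no neural list gene in double morphants. In Gata5 morphants at bud none was called by limma or limma-voom. With an unadjusted p under 0.05 as the limit, 2 were higher and 7 lower, 9.68% of the 93 beside 10.7% of all genes.

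At 6-somites none of the 93 was called in any morphant group by limma or limma-voom, while the block within each stage called irx7 and rx3, both higher, in double morphants. At an unadjusted p under 0.05, 1 was higher and 8 lower in Gata5 morphants, 1 higher and 12 lower in Gata6 morphants and 4 higher and 8 lower in double morphants. These were 9.68%, 14% and 12.9% of the 93, beside 11.1%, 9.08% and 17.5% of all genes. Only 20 of 93 in Gata5 morphants and 24 of 93 in Gata6 morphants were above 0, with medians of -0.15 and -0.12 beside 0.02 and -0.03 for all genes, while in double morphants 43 of 93 were, with a median of -0.02 beside -0.02. A fit of the 6-somites libraries alone called 17 in Gata5 morphants (2 higher), 4 in Gata6 morphants (0 higher) and 16 in double morphants (5 higher), or 18.3%, 4.3% and 17.2% of the 93, beside 8.46%, 6.28% and 20.2% of all genes.

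The lists closest in role to the 6 genes had medians near those of all genes in some comparisons and away from them in others. The 13 tested soxB and zic relatives had medians of -0.08, -0.16 and 0.03 in Gata5, Gata6 and double morphants at bud. At 6-somites these were -0.22, -0.03 and 0.01. Genes of the midbrain-hindbrain boundary had a median of -0.24 in Gata5 morphants at 6-somites. All genes had medians of -0.03 to 0.02 in the morphant comparisons. The 13 tested genes of the eye field and retina had a median log2 change of -0.26 in Gata6 morphants and -0.02 in double morphants at 6-somites, and 0.28 and 0.01 at bud. Their summed level at 6-somites was 110.3 to 115.9 RPKM in Gata6 morphants and 127.4 to 137.9 RPKM in double morphants, compared with 122.7 to 130.4 RPKM in WT embryos. At bud it was 108.8 to 129.2 RPKM in Gata6 morphants, below WT although the median was above 0, and 129.7 to 161.9 RPKM in double morphants, compared with 140.4 to 148.1 RPKM in WT embryos. The 12 tested genes of the midbrain-hindbrain boundary had a median of 0.01 in Gata6 morphants at bud, where en2 stood at 1.52, and a summed level of 67.5 to 118.2 RPKM against 93.2 to 119.0 RPKM in WT embryos.

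In WT embryos the same lists changed widely between the stages. Of the 93, 44 rose and 24 fell (73.1% called, beside 29.9% of all genes), with a median log2 change of 0.52 beside 0.08. Among the highest were sox10, with 16.7 RPKM at 6-somites against 0.920 RPKM at bud (log2 change 3.23 ± 0.17 SE, adjusted p = 3.88e-07, limma), and egr2, which marks hindbrain segments (17.4 and 1.96 RPKM, log2 change 2.74). The lowest were onecut1, a gene of differentiating neurons, with 1.36 RPKM at 6-somites against 5.99 RPKM at bud (log2 change -1.56), irx7 with 38.0 RPKM against 111.7 RPKM (log2 change -1.53), and rx3. The log2 change of en2 and of mab21l2 was larger than that of every one of these 93 genes.

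Markers of other tissues moved with the Gata6 morphant bud libraries. Of 6 blood and endothelium genes tested 3 were higher (etsrp, lmo2 and tal1), and their summed level was 16 to 20.7 RPKM in Gata6 morphants against 6.86 to 8.96 RPKM in WT embryos. Of 6 genes of the p53 response 1 was called and 6 were above 0, with a summed level of 230.8 to 359.5 RPKM against 108.0 to 125.0 RPKM in WT embryos. Of 7 notochord genes 2 were higher and 1 lower, at 59.1 to 66.2 RPKM against 66.8 to 74.0 RPKM in WT embryos. Of 10 somite genes 1 was lower, at 323.1 to 406.0 RPKM against 387.1 to 422.5 RPKM. The endoderm list held foxa2 and foxa3 alone and the hatching gland list klf17 and cd63 alone, as their other symbols were not matched. None of the 4 lists of enveloping layer (7 genes tested), yolk syncytial layer (5 tested), endoderm and hatching gland had a called gene there. Their summed levels were 2846 to 3910 RPKM for enveloping layer against 2910 to 3872 RPKM in WT embryos, and 2362 to 2438 RPKM for yolk syncytial layer against 1498 to 2073 RPKM in WT embryos. Endoderm genes summed to 36.7 to 45.7 RPKM against 44.4 to 66.9 RPKM in WT embryos, and hatching gland genes to 42.1 to 76.3 RPKM against 83.3 to 84.8 RPKM. Of the 8 lists, 5 did not overlap WT in summed level, where 38.7% of all genes taken singly did not. Yolk syncytial layer, blood and endothelium and p53 response lay above WT, and notochord and hatching gland below it. No marker in any list was listed at 0, which holds for every gene of the series. Of the genes called higher in Gata6 morphants at bud, en2, mab21l2, sox10, etsrp, lmo2 and tal1 also rose from bud to 6-somites in WT embryos. The 2 notochord genes rose there too, and the 1 gene of the p53 response was not called. Of the neural genes called lower, gbx1 and her11 also fell there, while her4.1 rose. Both comparisons use the same 2 WT bud libraries, so their directions are not independent. Of all genes 20.3% rose, but rises were commoner in the lists that hold sox10, etsrp, lmo2, tal1 and the 2 notochord genes. In these lists 6 of 6 blood and endothelium genes, 4 of 7 notochord genes and 44 of 93 neural list genes rose. The share among all those called higher in Gata6 morphants was not counted. A difference in developmental progress between Gata6 morphants and WT embryos at bud was not tested. The part of these lists, of the first component and of mdm2 in the values of en2, mab21l2 and gbx1 was not tested. For en2 the log2 change in Gata6 morphants at bud was 1.49 without library 1 of the Gata6 morphants and 1.45 to 1.59 over all 4 libraries left out in turn. Library 2 of the Gata6 morphants also lay above WT for mdm2, at 5.18 RPKM against 2.41 to 3.32 RPKM. Leaving out library 1 thus does not remove the difference in mdm2.

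At 6-somites, where rx1 lay below WT in Gata6 and double morphants, the summed levels of other lists also differed. Genes of the p53 response summed to 228.1 to 239.3 RPKM in Gata6 morphants and 168.5 to 190.7 RPKM in double morphants, compared with 113.6 to 120.8 RPKM in WT embryos, with 6 of 6 above 0 and 0 called in both groups. In Gata5 morphants, which overlapped WT for rx1, they summed to 234.8 to 238.8 RPKM. Genes of the yolk syncytial layer summed to 2546 to 2750 RPKM in Gata6 morphants and 1676 to 1689 RPKM in double morphants, compared with 2490 to 2538 RPKM in WT embryos, while 2 of 5 (apoc2 and slc26a1) were called higher in double morphants. Notochord genes summed to 107.0 to 107.8 RPKM in Gata6 morphants and 120.5 to 122.4 RPKM in double morphants, compared with 129.3 to 159.0 RPKM in WT embryos. Blood and endothelium genes summed to 63.2 to 64.9 RPKM in Gata6 morphants and 77.9 to 79.6 RPKM in double morphants, compared with 80.6 to 81.1 RPKM in WT embryos, with 0 of 6 called in Gata6 morphants and 2 of 6 lower in double morphants. The first component was 25.5 to 25.8 in Gata6 morphants and 14.6 to 21.8 in double morphants, against 34.7 to 38.4 in WT embryos. Of the 8 lists, 7 in Gata6 morphants and 8 in double morphants did not overlap WT in summed level. Taken singly, 50.9% and 60.3% of all genes did not overlap WT in these comparisons. Their part in the level of rx1 was not tested. rx1 rose between the stages in WT embryos, and a difference in developmental progress between the groups was not tested.

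In double morphants at bud, where zic5, gbx1 and sox19b lay above WT, the first component was -37.3 and -36.0. Genes of the p53 response summed to 121.7 to 270.0 RPKM against 108.0 to 125.0 RPKM in WT embryos. Blood and endothelium genes summed to 3.49 to 4.30 RPKM against 6.86 to 8.96 RPKM in WT embryos, with 1 of 6 called, kdr, lower. Notochord genes summed to 81.3 to 86.7 RPKM against 66.8 to 74.0 RPKM in WT embryos, with 0 of 7 called, and somite genes to 432.5 to 459.1 RPKM against 387.1 to 422.5 RPKM. The 2 hatching gland genes summed to 76.8 to 79.5 RPKM against 83.3 to 84.8 RPKM in WT embryos. Of 5 yolk syncytial layer genes 2 were called higher, apoc2 and slc26a1, and the sum of 1160 to 1630 RPKM overlapped the 1498 to 2073 RPKM of WT embryos. The part of these lists in the levels of zic5, gbx1 and sox19b was not tested. From bud to 6-somites in WT embryos zic5 rose and gbx1 fell, and a difference in developmental progress was not tested here either.

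The genes whose levels were most like each of the 6 genes were sought among 11436 named genes by Pearson's r of log2(RPKM + 1) over the 16 libraries. For genes that differ strongly between the stages r is mostly set by the stage, so the value within each stage (8 libraries) is given beside it, as a description. For en2 the closest were sox10 (r = 0.994 over all, 0.532 at 6-somites, 0.940 at bud), tal1 (0.993, 0.055 and 0.984) and egfl6 (0.992, 0.852 and 0.980). sox10 and tal1 thus followed en2 at bud, where both were among the genes called higher in Gata6 morphants, and not closely at 6-somites. As en2 was chosen for a morphant change and these genes by r, the likeness and the calls at bud rest on the same libraries.

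For mab21l2 the closest included cdc42ep3 (r = 0.996 over all, 0.627 at 6-somites, 0.990 at bud) and wnt4 (0.987, 0.876 and 0.927). For rx1 they were ret, a receptor tyrosine kinase gene (0.994, 0.959 and 0.702), morc3b (0.994, 0.982 and 0.803) and tgfbi (0.994, 0.938 and 0.872). For gbx1 they were fezf2, a forebrain gene (0.976, 0.873 and 0.942), foxd5, a gene of the early neural plate (0.973, 0.738 and 0.940), and ephb3 (0.973, 0.839 and 0.968). For sox19b they were gsk3a ENSDARG00000015681 (0.938, 0.849 and 0.970), btbd2 (0.934, 0.927 and 0.977) and atxn7l2 ENSDARG00000056268 (0.926, 0.764 and 0.969). For zic5 they were mtss2 ENSDARG00000028943 (0.965, 0.220 and 0.869), tamalin (0.950, 0.442 and 0.760) and znrf3 (0.950, 0.349 and 0.787). rx1 was the 1 gene of the 6 for which the genes named here followed it more closely at 6-somites than at bud in each case.

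sox19b also resembled its neighbour. In the order of genes of the RefSeq assembly GRCz12tu, matched by symbol, eif4a1a, which encodes a helicase of translation initiation, comes next to sox19b. At 6-somites eif4a1a averaged 341.7 RPKM in Gata5 morphants, 279.6 RPKM in Gata6 morphants and 373.4 RPKM in double morphants, compared with 273.8 RPKM in WT embryos. At bud it averaged 386.6, 274.7 and 400.3 RPKM in these morphants, against 327.6 RPKM in WT embryos. The 2 genes had r = 0.915 over the 16 libraries. eif4a1a was not called in any of the 6 morphant comparisons (limma); its lowest adjusted p was 0.0771, in double morphants at 6-somites, with a log2 change of 0.45 ± 0.12 (SE). This neighbour was singled out after its values were seen: the other 5 neighbours matched by symbol with a value in the fit (lrba and rps3a of mab21l2, cherp of rx1, rb1cc1 of gbx1 and clybl of zic5) had r between -0.442 and 0.717 with the gene beside them. zic2a, the other neighbour of zic5, was not matched, because 2 identifiers share the symbol zic2, so that range leaves it out. Whether reads of the 2 genes can be told apart by the authors' counting is not given in the sources used here.

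**Figure D5:**
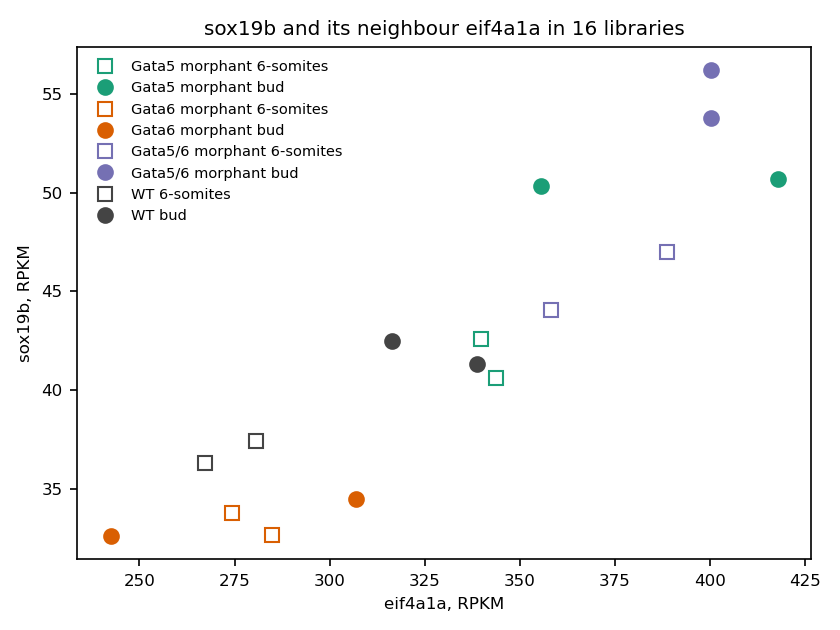
RPKM of sox19b against RPKM of eif4a1a in the 16 libraries, with 6-somites as open squares and bud as filled circles (axes do not start at 0). Within each stage sox19b is highest in Gata5/6 morphants (53.8 and 56.2 RPKM at bud) and lowest in Gata6 morphants (34.5 and 32.6 RPKM at bud).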

How the data were processed

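The deposited files hold RPKM values that the authors made from 36-base reads of whole-embryo polyA RNA, with genome build Zv9 per the submitters' processing notes. For the aligner, counter, strand setting and annotation, nothing is given in the sources used here. No gene was listed at 0. Symbols were matched by identifier for 19258 of 27257 identifiers, of which 2804 share a symbol. A genome of that build was not used here, so neither sequences nor positions are given.

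Values were transformed as log2(RPKM + 1). Genes at 1 RPKM or more in 2 or more libraries entered limma 3.58.1 (trend option, R 4.3.3), fitted to the 8 groups of all 16 libraries, which left 8 residual degrees of freedom. The two-sided p-values were adjusted by Benjamini-Hochberg over the genes tested, and those under 0.05 were called. Errors of RPKM are SD over 2 libraries. On simulated data for Gata6 morphants against WT at bud (200 of 14751 genes changed), 73% of changes of 1 and 95% of changes of 2 on the log2 scale were called. Whole reads were recovered from the RPKM steps for 27216 identifiers (99.85%, tolerance 0.01 reads) and used for depth and limma-voom alone.

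The genes described and the gene lists were chosen with earlier results of these data known. Beside the 6 genes, those named are up to 3 called neural list genes with the highest and up to 3 with the lowest change in a comparison, the 3 most alike to each of the 6, and mdm2, with 3 genes not reported here; relatives and neighbours were added by family and by gene order. Of 173 list symbols 19 were not matched. The labels do not say what a replicate number marks. Same-numbered libraries of different groups deviated together within a stage (correlations 0.189 to 0.557 in 6 of 6 pairs of groups at bud, 0.23 to 0.533 in 6 of 6 at 6-somites) and over 0.1 in 1 of 16 pairs across stages, so the numbers were taken to pair libraries within a stage. The main fit holds no such block, and values with it are given for some of the calls that it changed. Alternatives were another pseudocount, 2 other filters, fits of 1 stage alone, a replicate block (across stages and, chosen after seeing the data, within each stage), limma-voom, median-of-ratios scaling, and libraries left out.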

Additional observations from a re-analysis of the deposited data

Results flagged for a closer look

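The 4 results below stood out because every morphant library lay on one side of WT at 6-somites and on the other side at bud. Lying apart from WT was common: in Gata6 morphants 50.9% of all genes did so at 6-somites and 38.7% at bud. In Gata5 morphants 57% and 36% did. The share of all genes that changed side was not counted, and the 6 genes were chosen by morphant changes. The difference between the stages was not tested in any of the 4 results, and each rests on 2 libraries a group. In Gata6 morphants en2 was below WT at 6-somites (-0.21) and above it at bud (1.52), a difference of -1.73 on the log2 scale. mab21l2 in Gata6 morphants was at -0.39 at 6-somites and 1.49 at bud, a difference of -1.87. rx1 in Gata6 morphants was at -0.54 at 6-somites and 0.17 at bud, a difference of -0.71, with bud levels of 0.110 to 0.356 RPKM in the libraries of both groups. zic5 in Gata5 morphants was at -0.17 at 6-somites and 0.23 at bud, a difference of -0.40.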

How the results depend on the processing

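Median-of-ratios scaling moved no count over all genes by over 1.5 times, and fits of 1 stage alone did so in each morphant comparison. A fit of 1 stage alone called 1, 0 and 6 genes in Gata5, Gata6 and double morphants at bud, against 1249, 927 and 2975 at 6-somites; neural list genes were 0 in Gata6 and 0 in double morphants at bud, and 17, 4 and 16 at 6-somites. Bud libraries of 1 group were less alike than 6-somites ones, so the fit over both stages gives bud changes too small an error and 6-somites changes too large a one. limma-voom called 417 genes and 5 neural ones in Gata6 and 2 neural ones in double morphants at bud, and 114 and 80 genes in Gata5 and Gata6 morphants at 6-somites. Without the 2 bud libraries highest in mdm2 the counts at bud were 208, 2636 and 141 (neural 2 and 24 in Gata5 and Gata6 morphants), and 325, 210 and 1106 at 6-somites (neural 1 in Gata5 and 2 in double morphants). A filter of 5 RPKM gave 37, 28 and 245 genes at 6-somites, 2364 between the stages in WT and 0 neural genes in double morphants at bud. No filter gave 122 in Gata5 morphants at 6-somites, 0 neural genes in double morphants at bud and 2 at 6-somites. A pseudocount of 0.1 gave 32 in Gata6 morphants at 6-somites and 2 neural genes in double morphants at bud. Scaling gave 1 neural gene each in Gata5 and double morphants at 6-somites, and -0.29 for sox19b between the stages.

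With libraries left out in turn, the counts at bud were 8 to 30, 17 to 2219 and 61 to 388 (neural 0 to 0, 1 to 22 and 0 to 1), at 6-somites 3 to 9, 1 to 2 and 78 to 228 (neural 0 to 0 in all 3), and between the stages in WT 2390 to 4054 (neural 52 to 68). The log2 changes of the 6 genes between the stages in WT kept direction and side of the threshold in 76 of 77 alternatives. For en2 in Gata6 morphants at bud the log2 change was 2.77 with a pseudocount of 0.1 and 3.09 with limma-voom. The replicate block across stages gave 1 neural gene in double morphants at 6-somites. The replicate block within each stage, chosen after seeing the data, gave 88, 472 and 362 genes in Gata5, Gata6 and double morphants at bud and 115 in Gata5 morphants at 6-somites, and 5 neural genes in Gata6 morphants at bud and 2 each in double morphants at bud and at 6-somites. It left the calls of the 6 genes as they were in all 7 comparisons. rx1 was not tested under the filter of 5 RPKM. Depth limits en2 and rx1 at bud, with as few as 3 and 11 reads in a library.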
